A study of Homo sapiens with 3 samples.

Results

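Glycolysis is the chain of cytosolic enzymes that splits glucose into pyruvate. Glucose enters through SLC2A transporters, is phosphorylated and cleaved, and the resulting triose phosphates are oxidized by GAPDH and carried on to pyruvate. Pyruvate is then either reduced to lactate by lactate dehydrogenase and exported by SLC16A transporters, or taken up by mitochondria and oxidized by the pyruvate dehydrogenase complex, which pyruvate dehydrogenase kinases (PDKs) inhibit. Most steps are carried by several genes whose products differ in tissue and in regulation, and human pluripotent stem cells are known for using glycolysis heavily and for releasing lactate.

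The genes examined here are 41 genes of glycolysis, lactate and pyruvate handling, fixed by name and not by their levels, out of 58051 genes in the counts and 19629 protein-coding genes among them. All 41 names matched exactly 1 Ensembl identifier. They were grouped into 16 steps, of which 13 have more than 1 isoform. The samples are 3 replicates of untreated, wild-type (WT) H9 cells, an established human embryonic stem cell line, cultured on vitronectin, and ribosomal RNA was depleted from their total RNA. Nothing says whether the replicates came from separate cultures, so the spread between them may be technical. All 6 pluripotency markers examined were present, from 275 ± 24.7 TPM for NANOG to 2576 ± 64.7 TPM for LIN28A (SD, n = 3).

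Between 8655155 and 12024802 reads were counted on genes in each library. Levels are given as TPM, that is, reads divided by the summed length of a gene's exons and scaled to the same fixed total in each library, and values after ± are the SD over the 3 libraries. With 1 condition there is no test between groups, and with 3 libraries an exact sign-flip test of a ratio between 2 genes could not go below a two-sided p of 0.25. Isoforms are therefore compared by the ratio within each library and by whether their libraries overlap. In a bulk sample, a low level in all cells and a high level in few cells cannot be told apart.

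The 41 genes were mostly well expressed, and their levels spanned a wide range. By the classes that the study uses, in which genes below 0.01 TPM are nonexpressed and the others fall into 3 quantiles, 25 of the 41 (61.0%) were in the high class, above 26.96 TPM, against 28.8% of all protein-coding genes. Another 8 were medium, 6 were low and 2 were nonexpressed, which is 4.88% of them against 13.6% of all protein-coding genes. Below 1 TPM were 6 genes (14.6%), against 32.6% of all protein-coding genes. The median over the 41 genes was 57.1 TPM and that over all protein-coding genes 7.10 TPM. Just inside the high class was PFKP at 35.4 TPM, and just outside it GAPDHS at 16.7 TPM. Together the genes held 1.19 ± 0.0162% of the counted reads, and GAPDH alone held 0.269 ± 0.00490%.

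**Figure D1:**
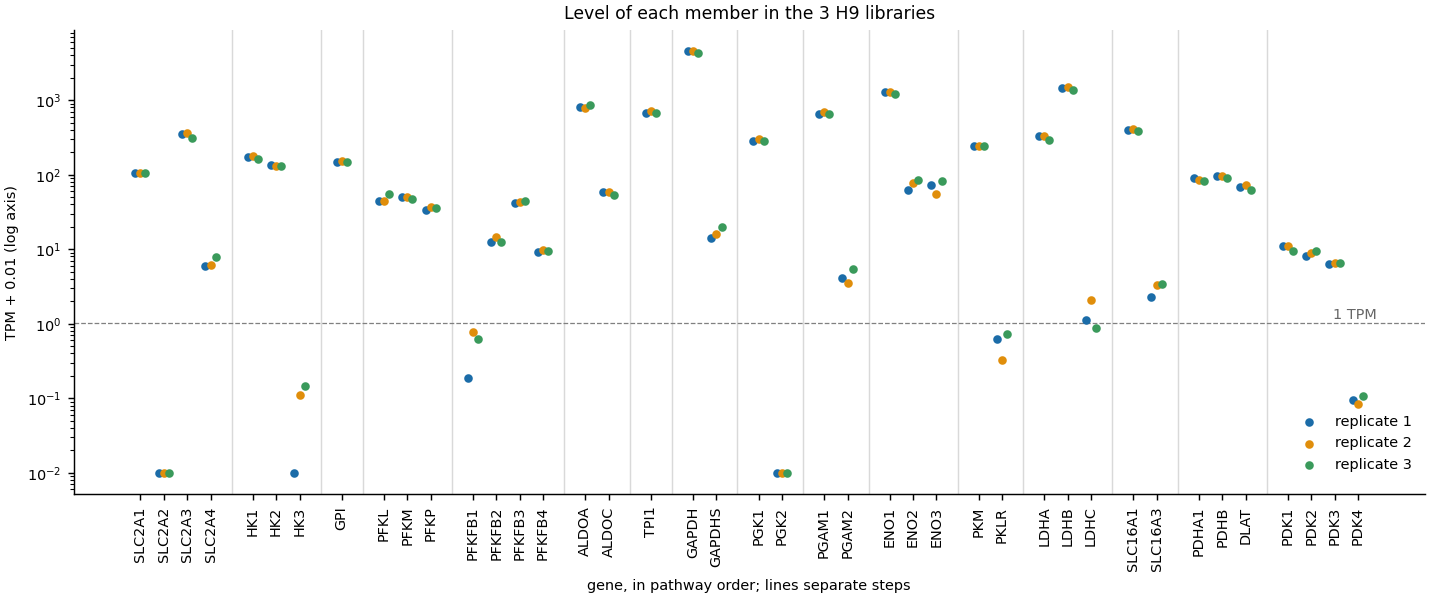
Level of each gene in TPM on a log axis, with 0.01 added so that zeros can be drawn, for replicates 1, 2 and 3, with genes in pathway order and vertical lines between steps. At each step with several isoforms, 1 to 3 genes lie well above 1 TPM, and SLC2A2, HK3, PFKFB1, PGK2, PKLR and PDK4 lie below it.

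Before the steps are taken in turn, the promoters of PGK1, PGK2 and LDHA are shown, since PGK2 had no read in any library while PGK1 was in the high class, and LDHA is the muscle-type gene of a step led here by another isoform. RefSeq gives promoters for 37 of the 41 genes, 68 in all because several genes have more than 1 start. The sequences are the 250 bases before the RefSeq start, 5′ to 3′ on the strand of the gene, in GRCh38.p14. Capitals mark ACGTG on either strand, the core of the element that hypoxia-inducible factors bind, and CACGTG, the E-box that MYC and related factors bind, which always contains the former. They lie at chrX:78103998-78104247 on the plus strand for PGK1, at chr6:49787286-49787535 on the minus strand for PGK2, and at chr11:18394313-18394562 on the plus strand for the first of 2 LDHA promoters.
PGK1: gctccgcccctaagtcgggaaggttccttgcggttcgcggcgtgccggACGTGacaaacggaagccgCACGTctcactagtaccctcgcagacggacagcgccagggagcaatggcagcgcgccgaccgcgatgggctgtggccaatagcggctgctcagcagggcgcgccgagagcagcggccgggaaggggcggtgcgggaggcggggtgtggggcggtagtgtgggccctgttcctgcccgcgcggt
PGK2: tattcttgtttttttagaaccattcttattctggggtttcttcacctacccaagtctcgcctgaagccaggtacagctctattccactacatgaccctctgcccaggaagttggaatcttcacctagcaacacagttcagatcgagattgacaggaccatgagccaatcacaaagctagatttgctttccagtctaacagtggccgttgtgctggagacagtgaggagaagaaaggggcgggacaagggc
LDHA: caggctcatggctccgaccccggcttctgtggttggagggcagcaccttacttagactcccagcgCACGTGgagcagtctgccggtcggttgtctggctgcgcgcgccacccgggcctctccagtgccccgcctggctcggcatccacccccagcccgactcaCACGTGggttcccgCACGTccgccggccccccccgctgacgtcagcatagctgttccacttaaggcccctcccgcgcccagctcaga

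The PGK1 window held 2 ACGTG matches and no E-box, and its GC content was 71.2%. That of LDHA held 2 E-boxes and had a GC content of 69.6%. The PGK2 window, with a GC content of 48.0%, held neither motif. Among all promoters of the genes examined, counted with the 50 bases after the start, 24 of 68 (35.3%) held ACGTG, against 21.4% of the 35116 promoters in the table. An E-box was present in 9 of 68 (13.2%) against 7.26%. The GC box GGGCGG, which SP1 binds, was present in 42 of 68 (61.8%) against 45.0%. Each motif was sought on either strand. In the windows shown, the GC box had 3 matches for PGK1, 1 for PGK2 and 0 for LDHA. Of genes with a promoter in the table, ACGTG was found at 14 of 23 in the high class and at 6 of 14 in the other classes. These are counts per gene, over 1 or more promoters each, so they cannot be set beside the shares per promoter. No share over all genes is given here, and whether ACGTG goes with the level of a gene was not tested. LDHB, the gene that led the step of LDHA, held neither ACGTG nor an E-box, and neither did ENO1, PGAM1, PKM and SLC2A1, all in the high class. LDHC and PKLR, in the low class, held ACGTG. Promoters of 1 gene can overlap, and a match in these letters is no measure of binding.

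Glucose import was led by SLC2A3, a high-affinity glucose transporter typical of neurons. SLC2A3 (ENSG00000059804, chromosome 12, 7919230 to 8019007, minus strand) had 352, 361 and 307 TPM in replicates 1, 2 and 3. SLC2A1, the transporter of most cultured cells and of red blood cells, had 107, 105.5 and 106 TPM. SLC2A3 was thus above SLC2A1 in each library, with a mean ratio of 3.19-fold (log2 ratio 1.67 ± 0.13), and it held 75.0 ± 1.83% of the summed level of the 4 transporters. SLC2A1 held 23.5 ± 1.51%. SLC2A4, the insulin-responsive transporter of muscle and fat, was at 6.59 ± 1.04 TPM. SLC2A2, the transporter of liver and pancreatic beta cells, had no read in any library, and a count of 0, which allows 3 counts, limits it to 0.396 TPM in the shallowest library.

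Hexokinase, which traps glucose in the cell by phosphorylating it, was divided between HK1 and HK2. HK1, the form found in most tissues (ENSG00000156515, chromosome 10, 69269984 to 69401884), had 175, 178 and 160 TPM. HK2, the inducible form of muscle and many tumors (ENSG00000159399, chromosome 2, 74834127 to 74893359), had 135, 131 and 132 TPM. Every library of HK1 was above every library of HK2, and HK1 was 1.29-fold higher, with a log2 ratio of 0.37 ± 0.08. HK1 held 56.3 ± 1.30% of the step. The size of this difference depends on gene length, since with the MANE Select transcript of each gene, the single representative transcript agreed by RefSeq and Ensembl, the ratio was 2.34-fold. HK3, a form of white blood cells, had 0, 1 and 1 reads. GPI, which turns glucose phosphate into fructose phosphate and has no isoform gene, was at 150 ± 1.75 TPM.

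Phosphofructokinase, the committed step of glycolysis, was the most evenly divided among its isoforms. PFKM, the muscle form, had 49.5, 50.4 and 47.0 TPM, and PFKL, the liver form, had 45.1, 44.3 and 55.0 TPM. PFKM was higher in replicates 1 and 2 and PFKL in replicate 3, and their log2 ratio of 0.03 ± 0.23 was smaller than its spread. PFKP, the platelet form, had 33.7, 37.1 and 35.4 TPM and was below both in each library, but with the longest transcript of each gene as its length it was above PFKL in each. The shares of the step were 37.0 ± 2.45% for PFKM, 36.3 ± 3.34% for PFKL and 26.7 ± 1.25% for PFKP. Per MANE Select transcript, PFKL was above PFKM in every library, with mean levels of 91.4 against 71.0 TPM, and it was also higher on average without replicate 1 or without replicate 2.

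The PFKFB enzymes make and remove the fructose bisphosphate that activates phosphofructokinase. PFKFB3, the form with the highest kinase activity relative to its phosphatase activity, led them with 42.3, 43.2 and 43.9 TPM, or 64.9 ± 1.64% of their summed level. PFKFB2, the heart form, was at 13.3 ± 1.30 TPM and PFKFB4 at 9.56 ± 0.272 TPM, so that PFKFB3 was 3.26-fold above PFKFB2, or 1.96-fold in reads without correction for length. PFKFB1, the liver form, had 1, 5 and 3 reads, or a mean of 0.521 ± 0.306 TPM.

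**Figure D2:**
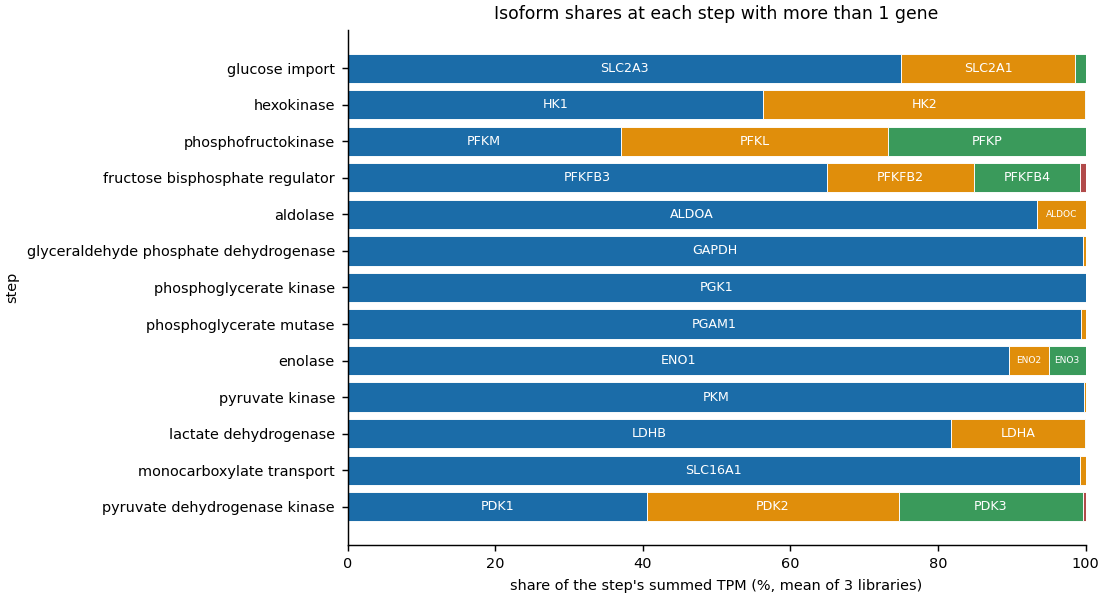
Share of the summed TPM of a step held by each isoform, in percent and as the mean of 3 libraries, for the 13 steps with more than 1 isoform, with the leading gene in blue at the left. A single gene holds over 99% at the GAPDH, PGK, PGAM, pyruvate kinase and SLC16A steps, while hexokinase, phosphofructokinase and PDK are divided.

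Aldolase, which cleaves the sugar, and the enzymes that follow it were each led by 1 gene at a high level. ALDOA, the aldolase of muscle and most other tissues (ENSG00000149925, chromosome 16, 30064164 to 30070457), had 801, 776 and 851 TPM. ALDOC, the aldolase of brain, had 58.7, 58.8 and 53.7 TPM, and ALDOA was 14.2-fold higher. Of the exon length of ALDOA, 42.8% lies within exons of another annotated protein-coding gene on the same strand, which has no entry in the counts. With such bases left out of the length and all reads kept, ALDOA was 24.8-fold above ALDOC. Shortening ALDOA alone could only raise the ratio, so this is no measure of its unshared part. Exons of a lncRNA gene on the opposite strand cover 11.3% of the exon length of ALDOC, and it had 795 reads per kb over the 3 libraries against 450 for ALDOC. TPI1, which interconverts both triose phosphates and has no isoform gene, was at 688 ± 21.5 TPM.

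GAPDH, which oxidizes glyceraldehyde phosphate (ENSG00000111640, chromosome 12, 6534512 to 6538374), had 4523, 4504 and 4281 TPM and was in position 2 of the 19629 protein-coding genes. Exons of the lncRNA gene ENSG00000269968 on the opposite strand cover 17.6% of its exon length, and 45134 reads were counted on this gene over the 3 libraries, against 83635 on GAPDH. Per kb of exon length, this lncRNA gene had 107000 reads against 34900 for GAPDH. Whether these are reads of GAPDH was not tested, and the level given for GAPDH depends on how such reads were counted. GAPDHS, the form of sperm, had 14.3, 16.1 and 19.8 TPM from 55, 72 and 65 reads. It was 268-fold below GAPDH, or 489-fold per MANE Select transcript and 434-fold in reads without correction for length, and held 0.377 ± 0.0750% of the step. Exons of TMEM147-AS1 on the opposite strand cover 62.7% of the exon length of GAPDHS, and this lncRNA gene had 208 reads per kb over the 3 libraries against 130 for GAPDHS, so the reads of both cannot be told apart without strand. Of 4 markers of male germ cells, PRM1, PRM2 and TNP1 had no read and ACR had 1 read in all.

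PGK1, which makes the first ATP of the pathway (ENSG00000102144, chromosome X, 77910739 to 78129295), had 280, 299 and 279 TPM. PGK2, its intronless copy used in sperm, had no read in any library. Against the level that 3 counts would give for PGK2 in the same library, PGK1 was at least 336-fold higher. PGAM1, the mutase of most tissues (ENSG00000171314, chromosome 10, 97426191 to 97433444), had 659, 702.5 and 648 TPM. PGAM2, the muscle mutase, had 9, 9 and 10 reads, or 4.36 ± 0.935 TPM. All of the exon length of PGAM2 (100%) lies within exons of DBNL on the opposite strand, which had 143 reads per kb against 33.5 for PGAM2, so here too the reads of both cannot be told apart without strand.

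Enolase, which makes phosphoenolpyruvate, was led by ENO1, with smaller but clear signal for the neuronal and muscle genes. ENO1 (ENSG00000074800, chromosome 1, 8861000 to 8879190, minus strand) had 1272, 1273 and 1218 TPM and held 89.6 ± 1.49% of the step. ENO2, the enolase of neurons, had 62.3, 78.3 and 84.3 TPM, and ENO3, the enolase of muscle, had 71.9, 55.8 and 83.5 TPM. ENO2 was above ENO3 in replicates 2 and 3 and below it in replicate 1, and their libraries overlapped. Per MANE Select transcript, ENO3 was above ENO2 in every library, with means of 129 against 86.5 TPM. Both are in the high class. Their coefficients of variation (CV) between replicates, 15.2% and 19.7%, were larger than those of 96.8% and 99.0% of the high-class protein-coding genes. Counting error alone would give 3.46% and 3.59%. ENO3 was based on 803, 725 and 795 reads, and its exons share 2.59% of their length with another gene.

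Levels of these isoforms can be set beside markers of the tissues they are named for. Of 4 skeletal muscle markers, MYOG had no read, CKM had 1, 0 and 1 reads, MYH2 was at 0.313 ± 0.0868 TPM, and ACTN3 had 3.66, 5.83 and 9.12 TPM. The summed level of the list was between 4.27 and 9.62 TPM. Of 4 neuronal markers, NEFL was at 61.0 ± 2.65 TPM, SYT1 at 40.0 ± 1.13 TPM, RBFOX3 at 3.62 ± 0.513 TPM, and SNAP25 had 2 reads in each library, with a summed level between 102.8 and 107 TPM. Of 4 hepatocyte markers, ALB and TTR had no read, APOA1 was at 0.471 ± 0.206 TPM and CPS1 at 2.03 ± 0.309 TPM, for a sum between 2.09 and 2.86 TPM. Of the erythroid markers, ALAS2 had 1 read in all, SLC4A1 was at 0.711 ± 0.153 TPM and AHSP at 3.36 ± 0.927 TPM. SOX17, GATA4, TBXT and PAX6, which mark early lineages, were between 0.961 and 1.75 TPM on average, and their sum was between 5.09 and 7.21 TPM. The part of such cells in the isoform levels was not tested.

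Pyruvate kinase, the last step to pyruvate, was almost wholly PKM. PKM (ENSG00000067225, chromosome 15, 72199029 to 72231819, minus strand) had 245, 243 and 243 TPM, with a CV of 0.367%, below the 1.35% that counting error alone would give. Per MANE Select transcript it was at 561 TPM. PKLR, the gene of liver and red blood cells, had 5, 3 and 5 reads, or 0.543 ± 0.206 TPM, and exons of HCN3 on the opposite strand cover 17.6% of its exon length. PKM makes the splice forms PKM1 and PKM2, which counts per gene cannot separate.

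Lactate dehydrogenase, which interconverts pyruvate and lactate, was led by LDHB and not by LDHA. LDHB, the heart-type subunit (ENSG00000111716, chromosome 12, 21635342 to 21757857, minus strand), had 1464, 1498 and 1364 TPM and was in position 50 of the protein-coding genes. LDHA, the muscle-type subunit (ENSG00000134333, chromosome 11, 18394560 to 18408425), had 335, 330 and 295 TPM. LDHB was higher in each library, by 4.37-, 4.54- and 4.62-fold, and the log2 ratio of 2.17 ± 0.04 had the smallest spread of the isoform ratios examined. LDHB held 81.8 ± 0.414% of the step. Another annotated protein-coding gene on the same strand, which has no entry in the counts, covers 33.4% of the exon length of LDHB. The direction was the same with other lengths, as the ratio was 3.84-fold per MANE Select transcript and 2.23-fold in reads without any correction for length. With exon bases shared on the same strand left out of the lengths and all reads kept, it was 6.78-fold. That setting shortens LDHB and not LDHA, so it could only raise the ratio. LDHC, the subunit of sperm, which lies 3.89 kb from LDHA, had 6, 13 and 4 reads, or 1.34 ± 0.631 TPM.

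Monocarboxylate transporters carry lactate and pyruvate across the cell membrane. SLC16A1, which is widespread (ENSG00000155380, chromosome 1, 112911847 to 112957593, minus strand), had 395, 415 and 391 TPM. SLC16A3, the transporter typical of strongly glycolytic muscle, had 2.25, 3.29 and 3.37 TPM, and SLC16A1 was 137-fold above it, or 65.2-fold per MANE Select transcript, with which SLC16A3 was at 6.53 TPM. SLC16A1 held 99.3 ± 0.152% of the step, and SLC16A3, per length of all exons, was just under the 3.35 TPM at which the medium class begins.

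The entry of pyruvate into mitochondrial oxidation was represented by 3 subunits in the high class and by inhibitory kinases in the medium and low classes. The subunits of the pyruvate dehydrogenase complex had 94.0 ± 2.61 TPM for PDHB and 86.5 ± 4.84 TPM for PDHA1, which together form its first enzyme, and 68.2 ± 5.42 TPM for DLAT, its second. Opposite-strand exons of MAP3K15 cover 19.3% of the exon length of PDHA1, and those of PIH1D2 cover 13.3% of that of DLAT. PDHB was above PDHA1 in each library by a mean of 1.09-fold, but the lowest library of PDHB was below the highest of PDHA1. This order depends on gene length, as PDHB was 2.30-fold above PDHA1 per MANE Select transcript and below it in each library with the longest transcript, at 74.9 against 93.2 TPM. Of the PDKs, PDK1 had 11.1, 10.9 and 9.44 TPM, PDK2 had 8.22, 8.88 and 9.39 TPM, and PDK3 had 6.38, 6.59 and 6.45 TPM. The lowest library of PDK1 was barely above the highest of PDK2. PDK4, the form raised by fasting, had 1 read in each library. The 4 PDKs summed to 25.9 ± 0.537 TPM, and no PDK was in the high class. The order of PDK1 and PDK3 is not settled by these counts: the MANE Select transcript of PDK3 has 1741 bases of the 17456 bases in its exons, and with that length PDK3 was at 40.2 TPM against 6.84 TPM for PDK1. Exons of SAMD14 on the opposite strand cover 38.6% of the exon length of PDK2.

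**Figure D3:**
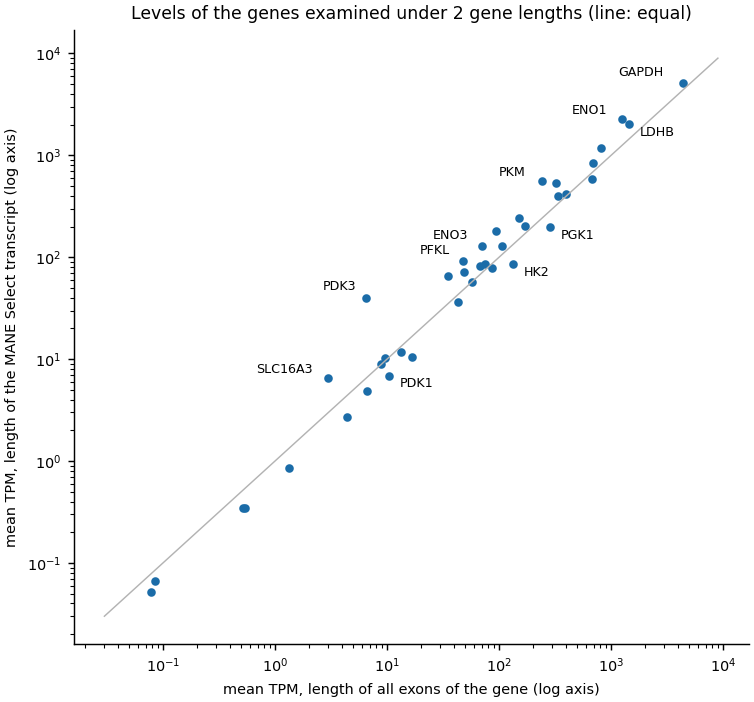
Mean TPM of the genes with at least 1 read, with the length of all exons on the horizontal axis and that of the MANE Select transcript on the vertical axis, both on log axes, with a line where both are equal. PDK3 lies farthest above the line, at 40.2 against 6.47 TPM, and PKM and PFKL are also higher per MANE Select transcript.

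Summed over the isoforms of each step, levels did not follow the order of the pathway. The GAPDH step was highest, at 4453 ± 132 TPM, followed by lactate dehydrogenase at 1764 ± 90.3 TPM, enolase at 1399 ± 12.2 TPM and aldolase at 867 ± 35.5 TPM. TPI1 and the PGAM genes followed at 688 ± 21.5 and 674 ± 28.1 TPM. The steps before cleavage of the sugar were lower: glucose import was at 452 ± 27.9 TPM, hexokinase at 303.5 ± 9.97 TPM, GPI at 150 ± 1.75 TPM and phosphofructokinase at 132 ± 4.59 TPM. After it, the phosphoglycerate kinase and pyruvate kinase steps, which both make ATP, were at 286 ± 11.5 and 244 ± 0.936 TPM. The order of such steps depends on gene length. Per MANE Select transcript, PKM was at 561 TPM, GPI at 241 TPM and PGK1 at 200 TPM. The SLC16A transporters summed to 403 ± 13.1 TPM and the PFKFB enzymes to 66.5 ± 2.14 TPM. These are levels of RNA and say nothing of the amount or activity of the enzymes.

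**Figure D4:**
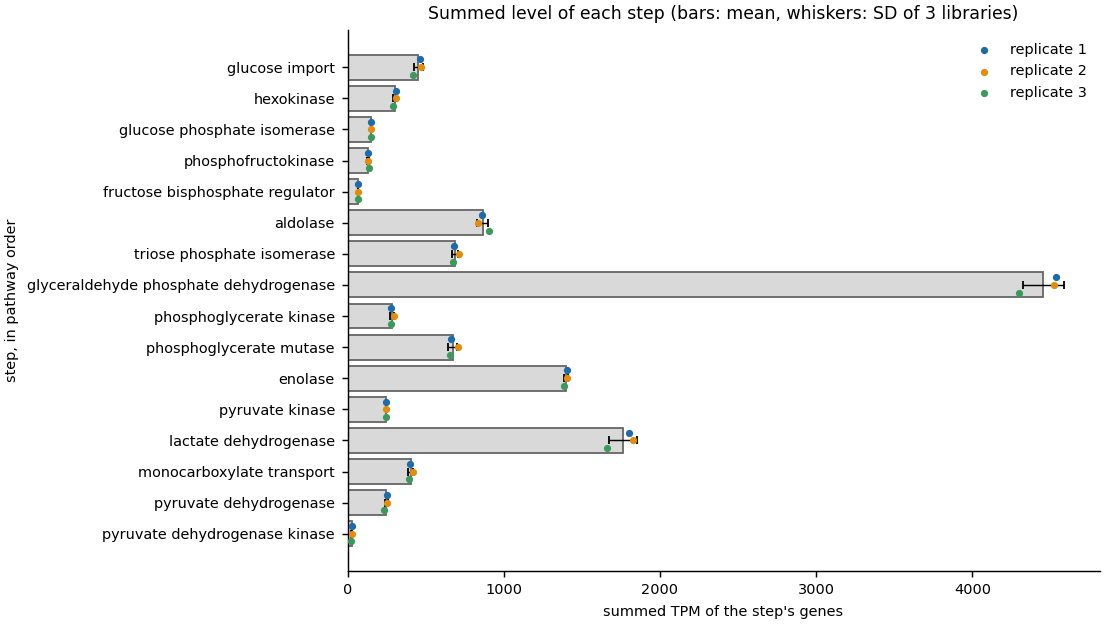
Summed TPM of the genes of each step on a linear axis, with steps in pathway order; bars are the mean and whiskers the SD of 3 libraries, and points are replicates 1, 2 and 3. The GAPDH step stands highest at 4453 TPM and the PDK step lowest at 25.9 TPM.

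In the order of the 41 genes from highest to lowest, by the length of all exons, GAPDH, LDHB and ENO1 came first. Each was clear of the next in every library, and they were the 3 among the 100 highest protein-coding genes. The order depends on gene length. Per MANE Select transcript, ENO1 was above LDHB, at 2272 against 2042 TPM, as it was in CPM, at 1659 against 1091. PKM, at 561 TPM per MANE Select transcript, was above SLC16A1, SLC2A3, LDHA and PGK1. The order that follows is by the length of all exons. ALDOA came next, above TPI1 and PGAM1, whose libraries overlapped. SLC2A3 overlapped with LDHA, and LDHA with PGK1. A run of neighbors whose libraries overlapped went from PDHB through PDHA1, ENO2 and ENO3 to DLAT. PFKM and PFKL, GAPDHS and PFKFB2, SLC2A4 and PDK3, and PKLR and PFKFB1 also could not be ordered by their libraries. PFKFB4 overlapped with both PDK1 above it and PDK2 below it. At the low end, PDK4, HK3, SLC2A2 and PGK2 had 3, 2, 0 and 0 reads in all and could not be ordered either.

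The spread between replicates was small for most of these genes. Over the 25 in the high class the median CV was 4.32%, and over all 5656 high-class protein-coding genes it was 5.03%. Beside ENO2 and ENO3, PFKL had the largest CV of them, at 12.4%. These 3 genes were among the 7 that were higher in replicate 3 than in the mean of replicates 1 and 2, of 30 genes with at least 100 reads in every library. The log2 ratio of replicate 3 to the others was 0.39 for ENO3, 0.30 for PFKL and 0.26 for ENO2, and -0.22 for both PDK1 and SLC2A3. Its median was -0.05 over the 30 genes and -0.03 over all 9386 protein-coding genes with as many reads, of which the middle 90% lay between -0.23 and 0.33. ENO3 alone of the 30 was outside that range in replicate 3. The same ratio was taken for the other replicates, each against its own range. Only ENO2 was outside that of replicate 1, at -0.38, and only ENO3, at -0.48, and PFKFB2, at 0.24, outside that of replicate 2. The spread of ENO2 and ENO3 was therefore not confined to replicate 3. Across the 30 genes, the ratio for replicate 3 had a Spearman's rho of 0.685 with the GC content of the canonical transcript, and across the 9386 genes of 0.428. All genes share the same libraries, so this describes the libraries and is no count of independent cases. The part of GC content in these differences was not tested.

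**Figure D5:**
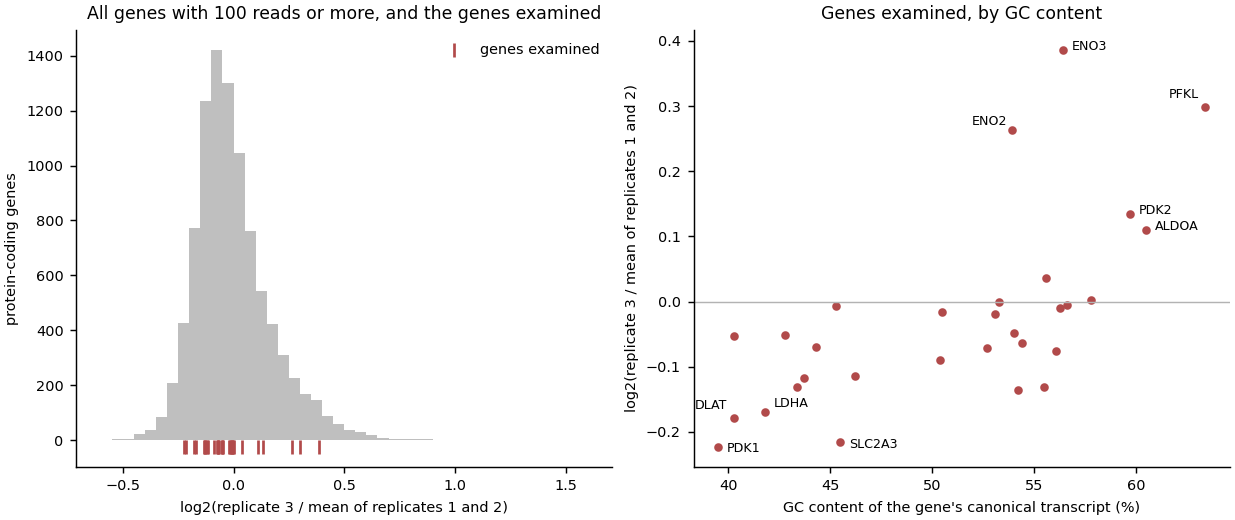
Left, number of protein-coding genes by the log2 ratio of replicate 3 to the mean of replicates 1 and 2, with red marks for the 30 genes examined that have at least 100 reads in every library; right, the same ratio for those 30 genes against the GC content of their canonical transcript in percent. ENO3, PFKL and ENO2 are highest, at 0.39, 0.30 and 0.26, and PDK1 and SLC2A3 lowest, at -0.22.

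A further 37 genes of sugar, pyruvate and lactate handling were examined beside the 41. Of these, 15 (40.5%) were in the high class, 10 in the medium class, 10 in the low class and 2 nonexpressed, and their median was 19.1 TPM. Over all protein-coding genes, 28.8% were in each of the high, medium and low classes and 13.6% were nonexpressed, with a median of 7.10 TPM. The highest was BSG, which brings SLC16A1 to the cell membrane, at 415 ± 65.0 TPM, close to the level of SLC16A1. EMB, the partner of another monocarboxylate transporter, was at 36.7 ± 1.45 TPM. DLD and PDHX, the remaining subunits of the pyruvate dehydrogenase complex, were at 83.1 ± 5.21 and 61.5 ± 4.15 TPM, PDHX being below DLAT in each library, while PDHA2, the copy of PDHA1 used in sperm, had no read. PDP1, the phosphatase that reverses the action of the PDKs, was at 27.2 ± 2.66 TPM, and PDPR, its regulatory subunit, at 43.0 ± 2.26 TPM. MPC1 and MPC2, which carry pyruvate into mitochondria, were at 28.6 ± 1.76 and 29.1 ± 1.32 TPM. HKDC1, a further hexokinase gene, was at 0.302 ± 0.0254 TPM.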

How the data were processed

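RNA-seq was run on rRNA-depleted total RNA of 3 replicates of untreated H9 cells. According to the study's methods and the submitters' processing notes, reads were trimmed with Trim Galore (0.4.4) and aligned to GRCh38 with TopHat2 (2.1.1), and Cufflinks (2.2.1) was used for abundances. The deposited values are raw read counts per gene, which the authors did not normalize. Which tool counted the reads, on which annotation and whether by strand, is not given in the sources used here.

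Identifiers were matched to GENCODE release 44 on the same build, in which 1103 of 58051 identifiers had no match. TPM was computed here from the union of exons and averaged over the 3 replicates, and classes followed the study's methods, over protein-coding genes. bedtools (2.31.1) gave exon overlaps. Promoters and their positions are from RefSeq, GRCh38.p14. All steps ran in Python (3.11.15) with numpy (2.4.6), pandas (2.3.3) and matplotlib (3.10.9), and level and class steps were tested on simulated data. A count of 0 allows 3 counts. Such limits cover counting error only, as PCR copies are not independent molecules.

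The 41 genes, the 37 other genes of the pathway, the markers and the alternatives were chosen with earlier results of these data known. One marker is not reported here. All 41 genes are named. Of the 37 others, up to 8 with the highest levels were to be named, and any beyond those were chosen after their values were seen. Of the pseudogenes, the 5 with the most reads are named, the fifth being tied with 1 other. Alternatives were other gene lengths, CPM, rescaling by TMM factors (edgeR 4.0.16) or DESeq2 (1.42.0) size factors in R (4.3.3), mitochondrial genes left out, other thresholds and gene sets for the classes, pseudogene reads added, the median and leaving out each replicate.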

Additional observations from a re-analysis of the deposited data

Results flagged for a closer look

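Reads were also counted on pseudogenes of the genes examined, which enter no comparison above. GENCODE names 111 pseudogenes after 14 of the 41 genes, and 3 of them exceeded, in each of the replicates, the 3 counts allowed by a count of 0. GAPDHP35 on chromosome 16 had 139, 148 and 95 reads, 382 in all, or 49.6 ± 5.45 TPM (SD, n = 3). PGAM1P5 on chromosome 12 had 31 reads in all and ENO1P3 on chromosome 3 had 20. TPI1P2, with 3, 13 and 17 reads, and GAPDHP1, with 3, 9 and 9, were the others among the 5 with the most reads, and PGAM1P7 also had 20. No read was counted on 57 of the 111. All pseudogenes together had 718 reads, which is 0.228% of the reads of their parent genes, and the highest shares were 0.624% for GAPDH with 65 pseudogenes and 0.604% for PGAM1 with 13. How reads that match both a gene and its copy were counted is not given in the sources used here, so a low count on a pseudogene does not show how many of its parent's reads could also match it.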

How the results depend on the processing

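The number of genes in the high class (25) and below 1 TPM (6), the share of counts on the 41 genes and the number of steps with the same leading gene stayed within 24 to 30, 6 to 8, 1.18% to 1.20% and 11 to 13 under the alternatives run for each, leaving out each replicate included. The median of 57.1 TPM over the 41 genes moved by more than its spread between replicates under several alternatives. It was 74.6 TPM with the longest transcript and 79.2 TPM with the MANE Select transcript as gene length. With exon bases shared on the same strand left out of the lengths and all reads kept, it was 42.8 TPM. Genes without such bases fell as well there, since TPM is scaled to a fixed total. In CPM, which is another unit, the median was 81.5. Without mitochondrial genes, where the total is smaller, it was 59.4 TPM. Over the 36 genes with at least 10 reads, where the lowest are dropped, it was 72.7 TPM.

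Leading genes changed at 2 of 13 steps. PFKL led phosphofructokinase with the MANE Select transcript, in CPM, and without replicate 1 (49.6 against 48.7 TPM for PFKM) or replicate 2 (50.01 against 48.2 TPM). At the PDK step, PDK2 led with the longest transcript, at 10.8 against 8.33 TPM for PDK1, and PDK3 with the MANE Select transcript. Of the 41 genes, 33 moved by more than their SD with the MANE Select transcript (22 higher, 11 lower) and 29 with the longest transcript (23 higher, 6 lower). With exon bases shared on the same strand left out of the lengths, 35 did (2 higher, 33 lower). SLC2A1, which shares no such bases, fell from 106 to 79.6 TPM through the fixed total alone. TMM, DESeq2 size factors and pseudogene reads moved none beyond its SD. The subunits PDHA1 and PDHB, which are not isoforms, changed places with the longest transcript, as did PFKL and PFKP. At the low end, a few reads set each value. No paired analysis was possible because there was only 1 condition to compare.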

Other observations

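Enzymes that run the pathway toward glucose ranged from no read to the high class. PCK1, the cytosolic enzyme that starts glucose synthesis in liver, had no read in any library, and PCK2, its mitochondrial form, was in the high class at 32.1 ± 1.21 TPM (SD, n = 3). FBP1, which opposes phosphofructokinase, was at 25.2 ± 2.83 TPM, just below the high class, and FBP2, its muscle form, had 6, 9 and 12 reads. G6PC3, the glucose phosphatase found in most tissues, was also in the high class at 35.7 ± 1.65 TPM. PC, which makes oxaloacetate from pyruvate, was in the medium class at 20.2 ± 4.24 TPM. HIF1A, the hypoxia-inducible factor gene whose protein is known to act on many of the genes examined, was at 257 ± 6.68 TPM, and EPAS1, which encodes a related factor, at 2.66 ± 0.755 TPM. The protein of HIF1A is regulated mainly by its degradation, which RNA levels do not show. Among further sugar transporters, SLC2A8 was at 20.3 ± 1.04 TPM and SLC2A14, a close copy of SLC2A3 with which reads could be shared, at 6.65 ± 0.580 TPM.

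Of the 41 genes, 6 lie on chromosome 12. GAPDH and TPI1 are 329 kb apart, TPI1 and ENO2 are 42.8 kb apart, and 996 kb separate ENO2 from SLC2A3. Their mean levels ran from 75.0 TPM for ENO2 to 4436 TPM for GAPDH, so these neighbors did not share a level. Chromosome X holds 4 of the genes, PFKFB1, PGK1, PDHA1 and PDK3, at 0.521, 286, 86.5 and 6.47 TPM.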
